A study of Mus musculus with 10 samples.

Results

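Serpin genes were compared between hypertrophied and quiescent hepatic stellate cells (HSCs), the vitamin A-storing cells of the liver. They were taken by symbol from the normalized counts, as every entry whose symbol starts with *Serpin*, a clade letter from a to i and a digit. The rule found 64 entries of 25233 with a symbol and 62322 in all, carrying 65 symbols, since *Serpina1a* and *Serpina1b* share an entry. Bulk RNA-seq of 10 libraries from male C57BL/6J mice was used. The 5 hypHSC libraries came from mice on a choline-deficient high-fat diet (CDAHFD), for 13 weeks in hypHSC 1 and 2 (age 19 weeks) and for 12 weeks in hypHSC 3, 4 and 5 (age 18 weeks). The 5 qHSC libraries came from mice on the standard diet, aged 36 weeks for qHSC 1, 2 and 5 and 34 weeks for qHSC 3 and 4. hypHSCs were sorted on green and qHSCs on blue fluorescence, and the digestion of the liver was not the same. Antibiotics were added to the buffers of the CDAHFD preparations. Diet, age, digestion, antibiotics and gate differed together and cannot be told apart. The paper selected the hypHSC preparations for RNA integrity from a larger set with more samples than mice. The mouse behind each library is not named, so libraries may share a mouse. n therefore counts preparations, and the p-values measure the spread between preparations.

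Serpins share a fold with an exposed reactive centre loop. In an inhibitory serpin the loop is bait: the protease cuts it, the serpin springs into another shape, and the enzyme is trapped in a covalent complex, so the residues of the loop set which protease is caught. Clade A serpins are mostly secreted into plasma by hepatocytes, clade B serpins lack a classical signal peptide and act largely inside cells, and the clades from C to I hold regulators of coagulation, fibrinolysis and complement. A few serpins inhibit no protease, such as the collagen chaperone *Serpinh1* and the hormone carriers *Serpina6* and *Serpina7*.

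The labelled cell type was checked against marker genes. Of 12 quiescent HSC markers, 11 were lower in hypHSC, with summed normalized counts of 34720.5 to 68405 in hypHSC and 1389790.0 to 2279280.0 in qHSC. Markers of activated HSCs and myofibroblasts were mixed: of 11, 2 were higher, 4 were lower and 5 were not called. Their sums overlapped (16307.6 to 60422.2 in hypHSC and 44702.0 to 72328.4 in qHSC). All 10 core macrophage markers were higher in hypHSC (summed 1011150.0 to 1382370.0 against 5171 to 104530.0), as were all 9 markers of lipid-associated macrophages (summed 966206 to 1125040.0 against 5883 to 7518). Of 10 neutrophil markers the 4 tested were higher (summed over all 10, 1861 to 8053 against 12.0 to 391.9), while *Ly6g* reached 13.6 and *Mpo* 8.09 normalized counts at most. *S100a9* and *Retnlg* reached at most 7.70 and 0 in qHSC. They passed the filter for testing (given below) through hypHSC alone and could only come out higher. *S100a8* averaged 20.4 in qHSC with a maximum of 96.7, against at least 1050 in hypHSC, and also passed through hypHSC alone. In bulk RNA, fewer cells of a type and less RNA per cell cannot be told apart. hypHSC 5 stood apart on the second principal component of the genes tested (-168, against -20.6 to 88.4 in the other hypHSC libraries and -32.4 to 2.65 in qHSC), and values without it are given for each serpin whose call it changed and for called serpins whose fold it moved by over 1.5 times. Reads on genes with a symbol numbered 30534719 to 43283589 in hypHSC and 35640104 to 47317028 in qHSC.

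Serpins took a smaller part of the RNA in hypHSC, and the mix of clades was different. They held 0.105% to 0.165% of these reads in hypHSC and 0.552% to 0.734% in qHSC. Reads on entries without a symbol are left out here and in FPKM, at 10.8% to 29.1% of all reads in hypHSC and 8.98% to 10.2% in qHSC. Levels of different genes were compared per length, as FPKM (reads scaled to exon length and to the reads on genes with a symbol). The summed serpin FPKM was 328 ± 64.3 in hypHSC and 1656 ± 233 in qHSC (SD, n = 5), without overlap (exact two-sided permutation test, p = 0.00794, the smallest that 5 libraries against 5 can give). *Serping1*, the gene of C1 inhibitor, ranked first in both groups, at 73.9 ± 30.8 FPKM in hypHSC and 979 ± 213 in qHSC (SD, n = 5). It made up 51.1% to 69.4% of the serpin FPKM in qHSC and 7.86% to 31.6% in hypHSC (21.6% to 31.6% without hypHSC 5), and *Serpinh1* made up 13.7% to 16.9% and 0.352% to 11.2% (5.02% to 11.2% without hypHSC 5). Clade B took 1.37% to 1.91% in qHSC and 16.4% to 25.8% in hypHSC. None of these 3 shares overlapped between groups (exact two-sided permutation test, p = 0.00794 each). The share of clade A was 30.7% to 68.8% in hypHSC (30.7% to 50.05% without hypHSC 5) and 13.2% to 31.2% in qHSC, with hypHSC 3 below qHSC 4 (p = 0.0159 in the same permutation test). Shares describe composition only, since one can rise because the rest falls.

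**Figure D1:**
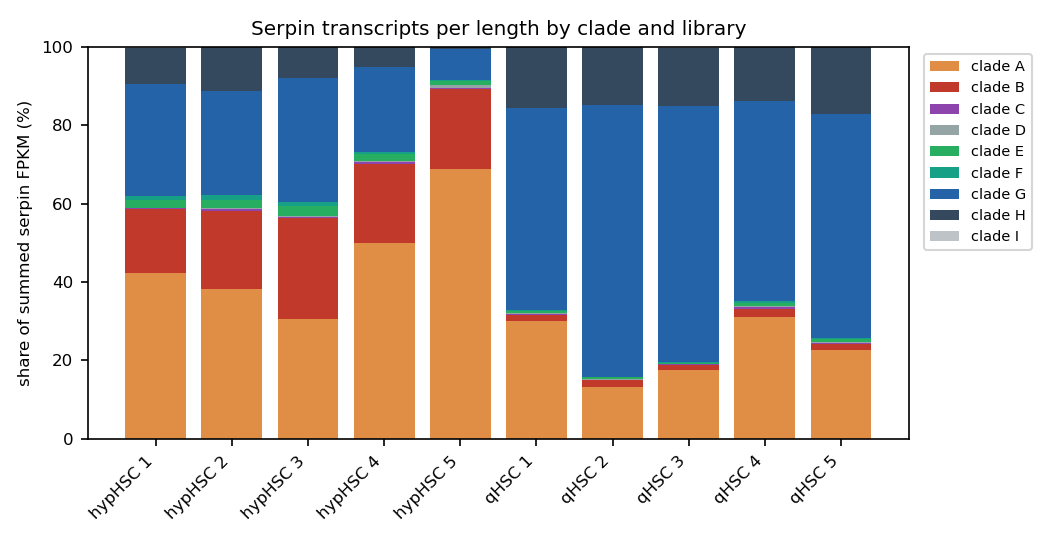
Share of the summed serpin FPKM (%) taken by each clade in each library, stacked to 100%. Clade B fills 16.4% to 25.8% of the hypHSC bars and 1.37% to 1.91% of the qHSC bars, more than 51% of which are clade G (*Serping1*).

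Tests were run on the 38 of 64 entries with 10 or more normalized counts in 5 or more libraries. A gene was called where limma, on log2(normalized count + 1), gave a log2 fold change of 1 or more in either direction with a Benjamini-Hochberg adjusted p of 0.05 or less over the 14630 genes tested. Among the serpins 22 were called, or 57.9%, against 39.5% of all genes tested. They were 10 called higher in hypHSC (26.3%, against 17.8% of all genes) and 12 called lower (31.6%, against 21.7%). In 16 the groups did not overlap (39.5% of all genes tested). The median log2 fold change was -0.36 for the serpins and -0.20 for all genes. The direction went by clade. In clade B, 8 of 11 tested entries were higher and 0 were lower (median 1.77). Of these, *Serpinb1c* and *Serpinb12* passed the filter through hypHSC alone (at most 3.15 and 0 in qHSC) and could only come out higher. In clade A, 1 of 17 was higher and 6 were lower (median -0.96). Among the 6, *Serpina11* passed the filter through qHSC alone, since of the hypHSC libraries only hypHSC 5 (45.4) was above 10. In clades C to I, 1 of 10 was higher and 6 were lower (median -1.97). The split depended on the scaling: 8 were higher and 14 lower with equal library totals, and 7 and 19 with scaling to 3 qPCR reference genes, which moved the median of all genes to -0.54 and -1.12. Without hypHSC 5 there were 10 higher and 14 lower.

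**Figure D2:**
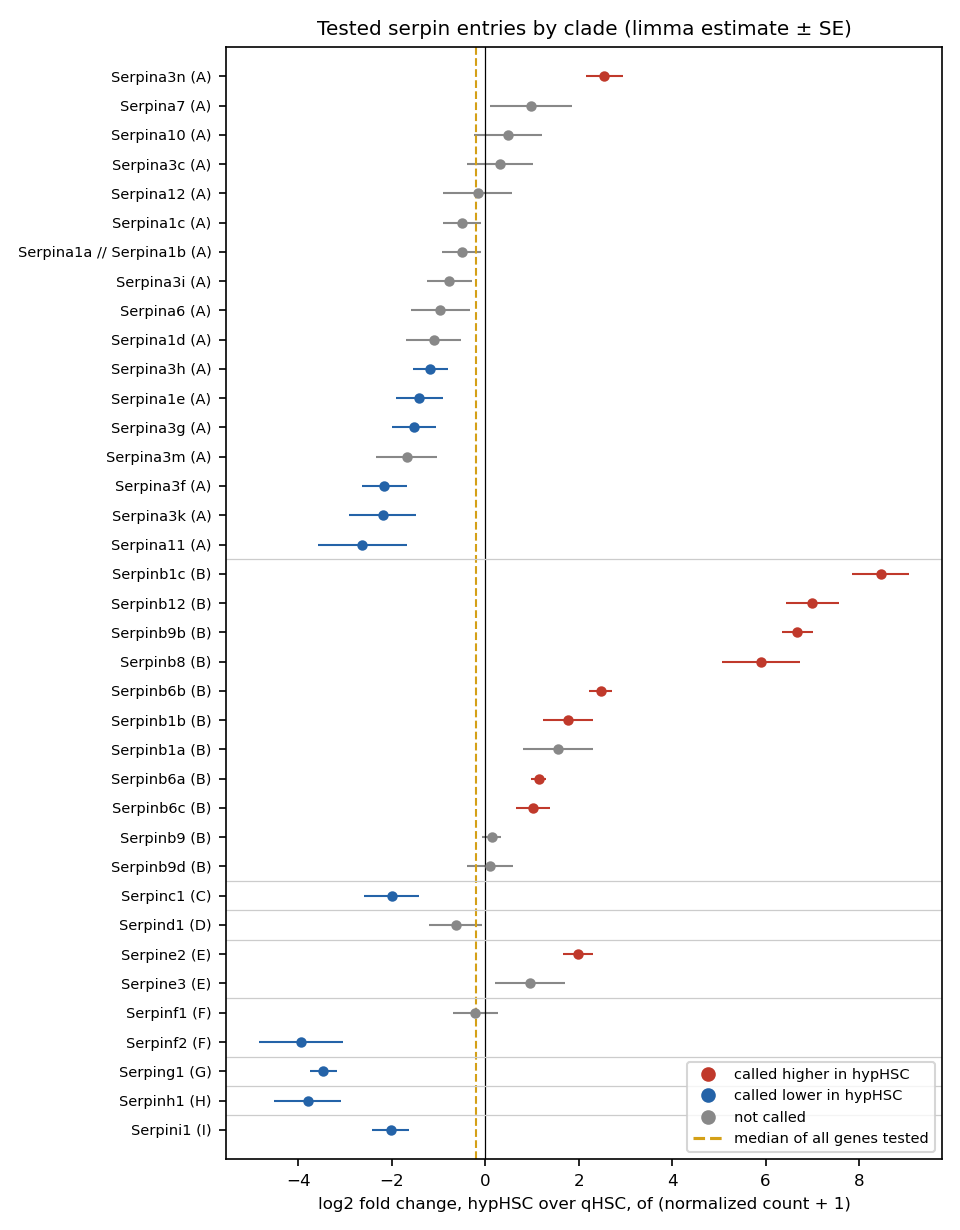
log2 fold change (hypHSC over qHSC, of the normalized count plus 1) of the tested serpin entries with its limma SE, by clade, 1 entry not being shown; colours mark entries called higher, called lower and not called. All 11 clade B values are above 0, from 0.11 to 8.46, while 13 of 17 in clade A are below 0. Among the 11, *Serpinb1c* and *Serpinb12* passed the filter through hypHSC alone and could only be above 0.

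Clade B held the largest rises. Its 28 entries lie in clusters on chromosome 13 (16 entries, 9 tested, 6 higher) and chromosome 1 (12 entries, 2 tested, both higher). *Serpinb1c* on chromosome 13 and *Serpinb12* on chromosome 1 are those that passed the filter through hypHSC alone. The macrophage and neutrophil markers given above were higher in the same libraries, as were the 5 tested of 7 cholangiocyte markers (summed 161556 to 336763 against 93.3 to 475, mostly *Spp1*, which is also a macrophage marker). Of 7 mesothelial markers, 3 of the 4 tested were higher (summed 537 to 1504 against 127 to 232), while *Msln* reached 88.9 and *Upk3b* 33.1 normalized counts at most. *Krt19*, a cholangiocyte and mesothelial marker, and the mesothelial *Gpm6a* reached at most 8.15 and 1.81 in qHSC. Both passed the filter through hypHSC alone and could only come out higher. The same held for the cholangiocyte marker *Epcam*, which averaged 2.17 in qHSC and reached 10.9 at most. Of 7 dendritic cell markers 6 were tested, of which *Itgax* (6.37) and *Clec9a* (1.44) were higher and *Zbtb46* (-2.70) was lower on the log2 scale (summed 744 to 3008 against 423 to 1140.4). *Itgax* reached at most 9.96 in qHSC and also passed the filter through hypHSC alone. Of 10 sinusoidal endothelial markers 9 were tested, of which *Oit3* (5.44), *Fcgr2b* (5.85) and *Stab2* (1.92) were higher and *Clec4g* (-2.95) and *Gpr182* (-3.95) were lower (summed 5617 to 7444 against 1813 to 4076). *Oit3* averaged 8.59 in qHSC and also passed the filter through hypHSC alone. The part of these cells in the clade B results was not tested.

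*Serpinb9* (chr13:33188523-33201938, GRCm39) and its paralog *Serpinb9b* (chr13:33211396-33224571) are neighbours on chromosome 13. *Serpinb9* inhibits granzyme B and protects the cell that makes it. The coding stretches of the reactive centre are shown because the pair, side by side in the genome, differs in many bases of this loop. They lie on the plus strand at chr13:33199679-33199750 and chr13:33223782-33223853, each within an exon, and capitals mark the 37 of 72 bases that differ.
Serpinb9: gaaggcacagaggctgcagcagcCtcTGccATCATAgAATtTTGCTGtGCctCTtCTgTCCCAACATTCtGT
Serpinb9b: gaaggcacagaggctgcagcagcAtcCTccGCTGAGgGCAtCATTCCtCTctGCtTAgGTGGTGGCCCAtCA
The first bases, which encode the hinge of the loop, are the same in both. Of the 59-base stretches (the read length) in their exons, 0.0772% of *Serpinb9* and 5.74% of *Serpinb9b* also occur in another gene.

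*Serpinb9b* was low in qHSC and high in hypHSC. It had 1424, 1286, 1983, 1433 and 2688 normalized counts in hypHSC 1 to 5 and 9.05, 23.0, 17.3, 13.7 and 18.0 in qHSC 1 to 5. Every hypHSC library lay above every qHSC library, and hypHSC 5 was highest. The means were 109-fold apart (1763 ± 582 against 16.2 ± 5.20, SD, n = 5), with a log2 fold change of 6.68 ± 0.33 (SE, limma, adjusted p = 1.07e-07). *Serpinb9* had 1407, 1500.1, 1066, 1037 and 786 in hypHSC and 1102, 1124, 1036, 822 and 1077 in qHSC. These groups overlapped, and the log2 fold change of 0.14 ± 0.20 (limma, adjusted p = 0.601) turned negative with equal totals (-0.22) and reference gene scaling (-0.80). Per 100 counts of *Serpinb9* there were 85.7 to 342 of *Serpinb9b* in hypHSC and 0.821 to 2.05 in qHSC (exact two-sided permutation test, p = 0.00794). *Gzmb*, the granzyme B gene, was too low to test, at 0 to 109 in hypHSC and 0 to 24.4 in qHSC. *Serpinb9d* had 18.9 to 37.3 in hypHSC and 8.56 to 31.5 in qHSC and was not called (limma, adjusted p = 0.874). *Serpinb9c*, *Serpinb9e*, *Serpinb9f*, *Serpinb9g* and *Serpinb9h* reached 15.5 at most and were not tested.

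The promoters of the pair are shown because these neighbours differ in their values. They are the 250 bases before the start of the annotated canonical transcript on GRCm39, plus strand, at chr13:33188274-33188523 and chr13:33211149-33211398. Capitals mark a match, on the reverse strand, to GAAA followed after 2 further bases by GAAA, an element of interferon regulatory factors, in *Serpinb9*, and to GAGGAA, the box of PU.1 and related ETS factors, in *Serpinb9b*.
Serpinb9: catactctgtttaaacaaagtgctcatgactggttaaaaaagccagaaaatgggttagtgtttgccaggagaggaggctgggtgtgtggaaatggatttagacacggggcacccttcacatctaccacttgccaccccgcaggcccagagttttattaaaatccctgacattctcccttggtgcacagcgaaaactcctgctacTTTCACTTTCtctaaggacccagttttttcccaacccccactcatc
Serpinb9b: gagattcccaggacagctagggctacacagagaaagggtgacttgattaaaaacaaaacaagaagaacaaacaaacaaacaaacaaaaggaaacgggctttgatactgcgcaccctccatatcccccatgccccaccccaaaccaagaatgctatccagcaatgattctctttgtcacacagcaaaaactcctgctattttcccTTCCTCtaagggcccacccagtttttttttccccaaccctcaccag
Both strands were searched. The GAAA pair occurs in 3.23% of 19152 promoters of this length and in 1 of 62 serpin promoters. GAGGAA occurs in 23.1% of all and in 17 of the 62. Of the called clade B genes, *Serpinb1b*, *Serpinb1c*, *Serpinb6b* and *Serpinb9b* hold it, and *Serpinb6a*, *Serpinb6c*, *Serpinb8* and *Serpinb12* do not. Other holders include *Serpinb1a* and *Serpinb9d*, which were not called, and *Serping1* and *Serpini1*, which were called lower. A match describes letters in this window and is not a site of binding.

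On chromosome 1, *Serpinb8*, which inhibits the convertase furin, had 597, 855, 537, 483 and 693 normalized counts in hypHSC and 10.9, 0, 13.4, 51.3 and 12.7 in qHSC. Every hypHSC value was above every qHSC value, and the means were 35.8-fold apart (log2 fold change 5.90 ± 0.84, limma, adjusted p = 0.000172). qHSC 4 held the highest qHSC value, and with 1 library left out the log2 fold change ran from 5.05 (without qHSC 2) to 6.48 (without qHSC 4). *Serpinb12*, an inhibitor of trypsin-like proteases, had 88.9, 84.9, 81.5, 142 and 377 in hypHSC and no read in qHSC. Against a floor of 3 reads per library it was at least 62.1-fold higher in hypHSC (limma, adjusted p = 3.21e-06), and hypHSC 5 was highest. With this bound in place of the fitted value the clade B median stayed at 1.77.

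The *Serpinb1* genes are the mouse counterparts of the inhibitor of neutrophil elastase, cathepsin G and proteinase 3. *Serpinb1c* had 341, 229.8, 348, 799 and 1030.0 normalized counts in hypHSC and 0, 0, 3.15, 0 and 0 in qHSC. Its 4 qHSC reads were all in qHSC 3, against 2337 reads in hypHSC (limma, adjusted p = 1.45e-06). *Serpinb1b* had 109, 134, 70.7, 29.4 and 133 in hypHSC and 15.4, 36.6, 26.0, 37.6 and 13.5 in qHSC. hypHSC 4 alone fell within the qHSC range, and the log2 fold change was 1.77 ± 0.53 (limma, adjusted p = 0.0174), or 1.42 with hypHSCs of 12 weeks only (adjusted p = 0.0948) and 0.86 with reference gene scaling (adjusted p = 0.184). *Serpinb1a* had 10.6 to 124 in hypHSC and 6.30 to 25.7 in qHSC and was not called (1.56 ± 0.75, limma, adjusted p = 0.107), although it was without hypHSC 5 (1.96, adjusted p = 0.0383). Of the proteases these serpins are known for, *Ctsg* had no read in any library and *Elane* reached 15.0 normalized counts in hypHSC and 14.2 in qHSC. *Prtn3* was lower in hypHSC, at 0 to 10.8 against 13.6 to 38.5 (log2 fold change -3.63 ± 0.81, limma, adjusted p = 0.00338). With a hypHSC mean of 2.78, it passed the filter through qHSC alone and could only come out lower.

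*Serpinb6a*, the counterpart of an intracellular inhibitor of cathepsin G, was the highest clade B gene per length in both groups (28.5 ± 3.55 FPKM in hypHSC and 16.5 ± 1.55 in qHSC). It had 9276, 7174, 7429, 10323 and 11779 normalized counts in hypHSC and 4338, 4145, 3739.7, 4478 and 3824 in qHSC. The groups did not overlap (log2 fold change 1.14 ± 0.17, limma, adjusted p = 0.000214), but the fold fell under the threshold with equal totals (0.79) and reference gene scaling (0.20). Other genes (*Nqo2*, *Ripk1* and *1110046J04Rik*) overlap 21.5% of its exon bases, and without strand such reads cannot be assigned. *Serpinb6b* had 1139, 1018, 544, 666 and 939 in hypHSC and 160.2, 147, 145, 173 and 125 in qHSC. It rose 5.74-fold in the means, without overlap (log2 fold change 2.47 ± 0.25, limma, adjusted p = 1.51e-05). *Serpinb6c* had 187, 82.8, 98.1, 75.5 and 118 in hypHSC and 44.4, 59.6, 41.7, 75.3 and 44.2 in qHSC. The groups nearly touched at hypHSC 4 and qHSC 4 (log2 fold change 1.03 ± 0.37, limma, adjusted p = 0.0385). Its call was lost without hypHSC 1, 3 or 5 or qHSC 1, 2, 3 or 5, at 0.82 to 1.08 with adjusted p of 0.0466 to 0.0863, and fell to 0.68 with equal totals and 0.10 with reference gene scaling.

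**Figure D3:**
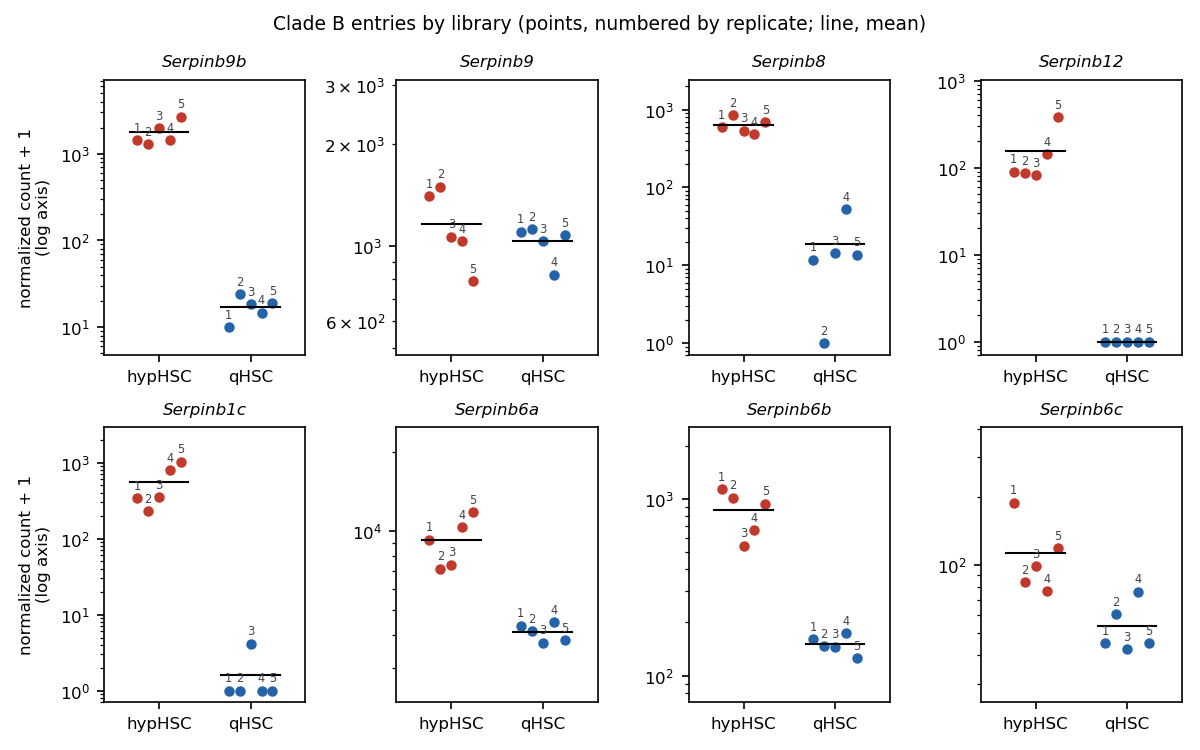
Normalized count plus 1 (log axis) of clade B genes in each library, with the group means. *Serpinb9b* lies at 1286 to 2688 in hypHSC and 9.05 to 23.0 in qHSC, whereas *Serpinb9* overlaps (786 to 1500.1 and 822 to 1124).

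Clade A, the plasma serpins, was read in both groups. Of 12 hepatocyte markers 0 were higher and 1 (*Apob*) was lower in hypHSC, with summed normalized counts of 75854 to 269601 in hypHSC and 79284 to 176341 in qHSC and a median log2 fold change of -0.29. The part of hepatocyte RNA in the clade A values was not tested.

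The *Serpina1* genes encode alpha-1 antitrypsin, the plasma inhibitor of neutrophil elastase, in near copies on chromosome 12. Their reactive centre stretches show where the copies part. They lie within exons on the minus strand of GRCm39 at chr12:103820021-103820092 (*Serpina1a*), chr12:103694588-103694659 (*Serpina1b*), chr12:103861358-103861429 (*Serpina1c*), chr12:103730026-103730097 (*Serpina1d*) and chr12:103913364-103913435 (*Serpina1e*), and capitals mark the 15 of 72 positions that differ within the set.
Serpina1a: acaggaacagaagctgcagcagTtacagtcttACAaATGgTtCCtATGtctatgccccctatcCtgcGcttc
Serpina1b: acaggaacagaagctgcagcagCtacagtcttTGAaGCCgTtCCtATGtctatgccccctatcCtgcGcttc
Serpina1c: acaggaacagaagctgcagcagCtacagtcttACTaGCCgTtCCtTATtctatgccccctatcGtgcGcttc
Serpina1d: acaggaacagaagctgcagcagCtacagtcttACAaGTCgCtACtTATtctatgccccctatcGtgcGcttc
Serpina1e: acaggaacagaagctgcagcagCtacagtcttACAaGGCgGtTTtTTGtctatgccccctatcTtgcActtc
Between pairs, from 4 (*Serpina1c* and *Serpina1d*) to 10 (*Serpina1a* and *Serpina1e*) bases differ. Over whole exons 53.3% of the 59-base stretches of *Serpina1c*, 36.3% of *Serpina1d*, 28.9% of the joint entry and 19.5% of *Serpina1e* occur in another gene. The joint entry spans *Serpina1d* and nearly all of *Serpina1c*. The split of reads between these entries is uncertain.

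Summed over the 4 entries, *Serpina1* had 17643, 9632, 6387, 16797 and 31745 normalized counts in hypHSC and 43278, 13673, 16045, 34244 and 24690.0 in qHSC. The groups overlapped (log2 fold change -0.76 ± 0.45, limma with the entries merged, adjusted p = 0.182). *Alb*, the albumin gene of hepatocytes, had 4052, 2850.1, 1235, 6711 and 16356 in hypHSC and 6989, 2318, 4195, 6172 and 6985 in qHSC. hypHSC 3 was lowest and hypHSC 5 highest of the hypHSC libraries in both. Per 100 counts of *Alb* there were 194 to 517 of *Serpina1* in hypHSC and 354 to 619 in qHSC (exact two-sided permutation test, p = 0.103).

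Singly, the joint entry of *Serpina1a* and *Serpina1b* had 5689, 3403, 2089.8, 4980.1 and 8363 in hypHSC and 11518, 3322, 4379.8, 9257 and 6161 in qHSC. *Serpina1c* had 7795, 3374, 2728, 5185 and 8186 in hypHSC and 12938, 3808, 4928, 10412 and 6792 in qHSC. Both overlapped and were not called (limma, adjusted p = 0.345 and 0.328). *Serpina1d* had 2585, 1776, 980.4, 4416 and 11094 in hypHSC and 9439, 3095, 4069, 9661 and 8856 in qHSC. hypHSC 5 was the highest of all, and the log2 fold change was -1.11 with it and -1.58 without it (limma, adjusted p = 0.146 and 0.0153). *Serpina1e* had 1574, 1079, 589, 2217 and 4103 in hypHSC and 9383, 3447, 2668, 4914 and 2881 in qHSC and was called lower (-1.41 ± 0.50, limma, adjusted p = 0.0363). The call was lost without hypHSC 1, 2 or 3 or qHSC 1, 2 or 4, at -1.06 to -1.48 with adjusted p of 0.0536 to 0.0882, and by edgeR (adjusted p = 0.0804). The letters GTTAAT, an element of the hepatocyte factor HNF1, occur in the promoters of *Serpina1a*, *Serpina1c*, *Serpina1d* and *Serpina1e*, in 11 of 62 serpin promoters and in 5.53% of all promoters.

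The *Serpina3* genes, the expanded mouse family of alpha-1 antichymotrypsin, lie in a row on chromosome 12. *Serpina3n* was called higher in hypHSC, and *Serpina3f*, *Serpina3g*, *Serpina3h* and *Serpina3k* were called lower. Their reactive centre stretches are shown because they differ far more than those of *Serpina1*. They lie within exons on the plus strand of GRCm39 at chr12:104186501-104186572 (*Serpina3f*), chr12:104207328-104207399 (*Serpina3g*), chr12:104311525-104311596 (*Serpina3k*), chr12:104360025-104360096 (*Serpina3m*) and chr12:104379704-104379775 (*Serpina3n*), and capitals mark the 44 of 72 positions that differ within the set.
Serpina3f: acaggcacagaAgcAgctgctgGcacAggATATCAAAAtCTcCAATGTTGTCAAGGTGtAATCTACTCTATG
Serpina3g: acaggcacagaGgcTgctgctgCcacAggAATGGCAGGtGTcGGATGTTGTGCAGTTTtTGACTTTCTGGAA
Serpina3k: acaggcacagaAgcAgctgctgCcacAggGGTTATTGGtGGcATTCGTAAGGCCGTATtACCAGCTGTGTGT
Serpina3m: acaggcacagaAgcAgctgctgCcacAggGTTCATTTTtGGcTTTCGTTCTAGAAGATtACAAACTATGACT
Serpina3n: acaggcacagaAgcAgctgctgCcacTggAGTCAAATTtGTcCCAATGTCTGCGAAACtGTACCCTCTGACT
*Serpina3k* and *Serpina3m* are the closest, with 18 differing bases, and *Serpina3f* and *Serpina3k* are the farthest apart, with 36. *Serpina3n* differs from *Serpina3m* by 22.

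*Serpina3n*, an acute-phase gene whose product inhibits granzyme B, had 1582, 1518, 844, 1225 and 522 normalized counts in hypHSC and 266, 81.8, 239, 200.2 and 178 in qHSC. The lowest hypHSC value, in hypHSC 5, was above the highest qHSC value. The means were 5.90-fold apart (log2 fold change 2.55 ± 0.39, limma, adjusted p = 0.00029). Of its 59-base stretches 1.67% occur elsewhere.

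*Serpina3k*, a hepatocyte gene, had 954, 1103, 287, 3079 and 6847 in hypHSC and 9747, 4287, 3690.1, 9916 and 8469.9 in qHSC. Only hypHSC 5 lay within the qHSC range, and the gene was called lower (-2.20 ± 0.72, limma, adjusted p = 0.0253). The call was lost without hypHSC 1 or qHSC 1, 4 or 5, at -2.05 to -2.11 with adjusted p of 0.0549 to 0.0574, and by edgeR (adjusted p = 0.115). It was also lost with hypHSCs of 12 weeks only (-1.86, adjusted p = 0.113), while the log2 fold change was -2.76 without hypHSC 5 (adjusted p = 0.00241) and -1.61 without hypHSC 3 (adjusted p = 0.0414). *Serpina3m* had 193, 268, 102, 686 and 1249 in hypHSC and 1482, 739, 470.0, 1812 and 1673 in qHSC and just missed the call (-1.68 ± 0.65, limma, adjusted p = 0.0509). It was called without hypHSC 4 or 5 or qHSC 3, at -1.93 to -2.15 with adjusted p of 0.0076 to 0.0425. Merged, the pair was lower in hypHSC (-2.11 ± 0.70, limma, adjusted p = 0.0269). Per 100 counts of *Alb* there were 23.2 to 45.9 of *Serpina3k* in hypHSC and 88.0 to 185 in qHSC, without overlap (exact two-sided permutation test, p = 0.00794). Set against 100 counts of *Serpina3k* there were 7.62 to 294 of *Serpina3n* in hypHSC and 1.91 to 6.46 in qHSC (p = 0.00794 in the same permutation test).

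*Serpina3g* acts inside cells, where it restrains lysosomal cathepsins, and had 1624, 1731, 812, 826 and 319 normalized counts in hypHSC and 2233, 1944, 5759.9, 1796 and 2606 in qHSC. *Serpina3f* had 377, 312, 264, 285 and 183 in hypHSC and 811, 682, 4825, 852 and 1299 in qHSC. In both, the groups did not overlap and qHSC 3 stood far above the other libraries. The log2 fold changes were -1.52 ± 0.47 and -2.16 ± 0.48 (limma, adjusted p = 0.0192 and 0.0033), and -1.23 and -1.67 without qHSC 3. *Serpina3h* had 344, 266, 126, 133 and 138 in hypHSC and 393, 295, 773, 315 and 451 in qHSC. hypHSC 1 lay within the qHSC range, and the log2 fold change of -1.18 ± 0.38 (limma, adjusted p = 0.0227) was no longer called without hypHSC 4 (-1.06, adjusted p = 0.0529) or qHSC 3 (-0.96, adjusted p = 0.0595). *Serpina3i* had 115, 102, 50.7, 61.9 and 37.8 in hypHSC and 83.3, 98.0, 304, 73.6 and 114 in qHSC and was not called (limma, adjusted p = 0.206). *Gm56487* overlaps 43.7% of the exon bases of *Serpina3g*. With the 4 entries merged the log2 fold change was -1.60 ± 0.44 (limma, adjusted p = 0.0111).

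The promoters of *Serpina3f* (chr12:104180522-104180771) and *Serpina3g* (chr12:104202136-104202385) are shown as those of members that were lower together and highest in the same library. They are the 250 bases before the start of the annotated canonical transcript on the plus strand of GRCm39. Capitals mark the match to TTCNNNGAA, an element of STAT factors that reads the same on both strands.
Serpina3f: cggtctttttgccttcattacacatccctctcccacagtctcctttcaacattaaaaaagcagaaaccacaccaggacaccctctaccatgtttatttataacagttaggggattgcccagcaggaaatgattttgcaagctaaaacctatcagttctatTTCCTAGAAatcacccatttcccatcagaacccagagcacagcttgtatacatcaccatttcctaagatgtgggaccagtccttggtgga
Serpina3g: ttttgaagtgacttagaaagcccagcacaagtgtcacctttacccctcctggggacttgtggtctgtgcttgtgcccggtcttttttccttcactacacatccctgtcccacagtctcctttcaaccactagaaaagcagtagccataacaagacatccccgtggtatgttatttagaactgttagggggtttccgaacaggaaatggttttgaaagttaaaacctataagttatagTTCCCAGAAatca
The element occurs in 7.2% of all promoters and in 9 of 62 serpin promoters, *Serpina3i* among them and *Serpina3k* and *Serpina3n* not.

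The other tested clade A genes were low. *Serpina10*, whose product inhibits factor Xa together with protein Z, had 143, 85.9, 9.98, 161 and 112 in hypHSC and 77.8, 22.1, 52.8, 92.4 and 49.5 in qHSC. *Serpina7*, the thyroxine carrier, had 40.4, 43.5, 43.2, 174 and 233 in hypHSC and 82.4, 5.11, 26.0, 157 and 50.2 in qHSC. Both overlapped and were not called (limma, adjusted p = 0.608 and 0.379). *Serpina11* had 9.43, 0, 0.83, 6.29 and 45.4 in hypHSC and 52.5, 40.9, 29.1, 47.1 and 17.2 in qHSC and was called lower (-2.63 ± 0.96, limma, adjusted p = 0.0403). That call was lost without hypHSC 2, 3 or 4 or qHSC 1, 2, 3 or 4, at -2.0 to -2.72 with adjusted p of 0.0595 to 0.0855, and by DESeq2 and edgeR (adjusted p = 0.191 and 0.265). Without hypHSC 5, the highest of its group, *Serpina11* was at -3.38 (adjusted p = 0.00409). *Serpina6*, the corticosteroid carrier, had 15.5 to 50.7 in hypHSC and 11.1 to 97.8 in qHSC and was called lower only when qHSC 2 was left out (-1.49, adjusted p = 0.0348; -0.96 and 0.232 with it, limma), or with reference gene scaling. *Serpina12*, the adipokine vaspin, and *Serpina3c* lay between 4.54 and 115 in all libraries and were not called (limma, adjusted p = 0.873 and 0.742).

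**Figure D4:**
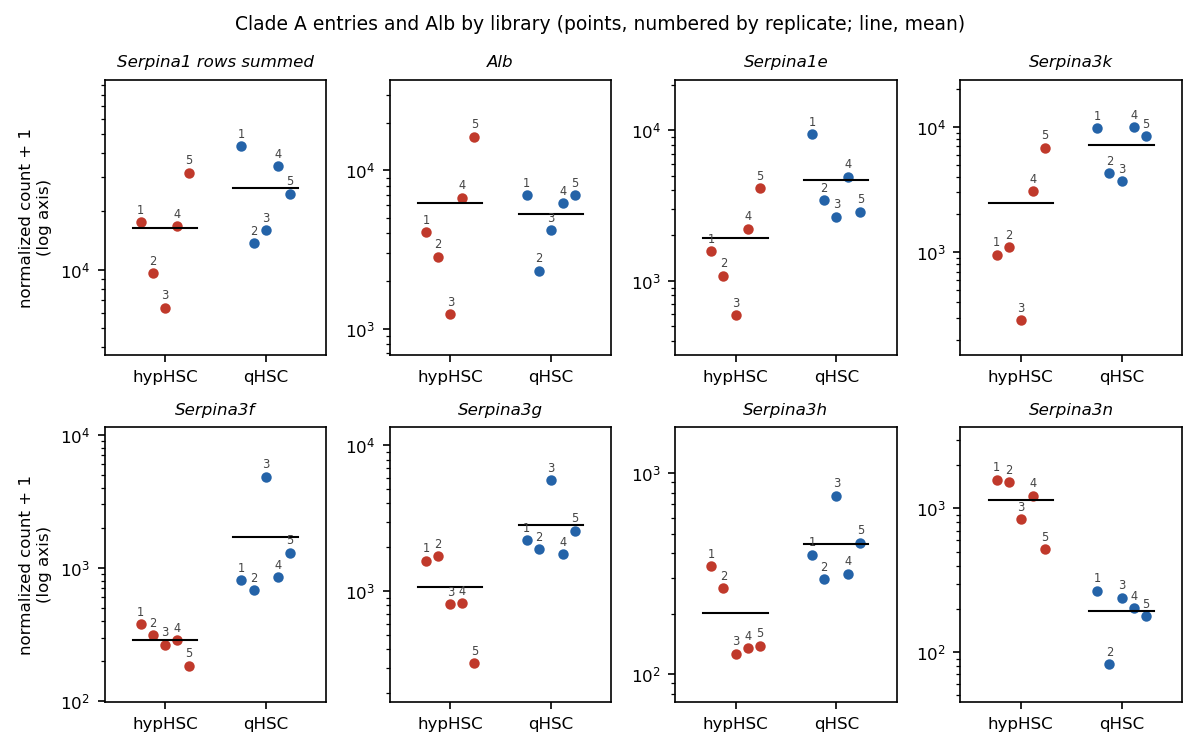
Normalized count plus 1 (log axis) of clade A genes and *Alb* in each library (points numbered by replicate), with the group means. *Serpina3n* is higher in all hypHSC libraries (522 to 1582) than in any qHSC library (81.8 to 266), while *Serpina3f* and *Serpina3g* are highest in qHSC 3.

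Of the coagulation serpins, *Serpinc1* encodes antithrombin, which neutralises thrombin and factor Xa. It had 234, 440.0, 72.3, 729 and 617 normalized counts in hypHSC and 1559, 651, 953, 2110.1 and 1730.1 in qHSC. hypHSC 4 alone lay within the qHSC range, and the log2 fold change was -2.002 ± 0.59 (limma, adjusted p = 0.0156), with an adjusted p of 0.0503 in hypHSCs of 12 weeks only. Per 100 counts of *Alb* there were 3.77 to 15.4 of *Serpinc1* in hypHSC and 22.3 to 34.2 in qHSC (exact two-sided permutation test, p = 0.00794). *Zbtb37* overlaps 34.4% of its exon bases. *Serpind1*, heparin cofactor II, had 31.0, 76.6, 67.4, 107 and 331 in hypHSC and 195, 127, 74.8, 193 and 146 in qHSC. hypHSC 5 was highest of all libraries, and the gene was not called (limma, adjusted p = 0.384).

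The coagulation factors in the protease list did not move together. *F9* and *F11* were not called (limma, adjusted p = 0.166 and 0.741), and *F12* was lower with overlapping groups (log2 fold change -1.86 ± 0.55, limma, adjusted p = 0.0157). *F2*, prothrombin, was lower, at 231 ± 163 in hypHSC against 809 ± 343 in qHSC (SD, n = 5, log2 fold change -2.21 ± 0.68, limma, adjusted p = 0.0186). *F7* was higher, at 3067 ± 1109 against 54.5 ± 35.1 (6.02 ± 0.51, limma, adjusted p = 4.27e-06), as was *F10*, at 1813 ± 460.1 against 219 ± 84.3 (3.10 ± 0.31, limma, adjusted p = 1.33e-05). *Tfpi*, a Kunitz-type inhibitor of the pathway that factor VII starts, was lower, at 247 ± 136 against 1002 ± 164 (-2.17 ± 0.35, limma, adjusted p = 0.000383).

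Of clade E, *Serpine2* encodes protease nexin 1, which inhibits thrombin and the activators of plasminogen. It had 3409, 1816, 1945, 1899 and 988 normalized counts in hypHSC and 763, 449, 433, 338 and 465 in qHSC. It was higher in every hypHSC library than in any qHSC library, and highest in hypHSC 1 (log2 fold change 1.98 ± 0.32, limma, adjusted p = 0.00039). *Serpine3* had 5.39 to 115 in hypHSC and 5.43 to 19.6 in qHSC and was not called (limma, adjusted p = 0.316).

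*Plau*, urokinase, had 138 to 560.1 in hypHSC and 0 to 18.8 in qHSC (6.56 ± 0.84, limma, adjusted p = 8.31e-05), and its receptor *Plaur* had 3641 to 6407 and 0 to 93.7 (7.51 ± 1.05, limma, adjusted p = 0.000149). *Plau* averaged 5.80 in qHSC, so it passed the filter through hypHSC alone and could only come out higher. *Plat*, tissue plasminogen activator, was called higher (1.92 ± 0.71, limma, adjusted p = 0.0422), although its groups overlapped, at 492 to 3598 and 156 to 2159. *Vtn*, vitronectin, a protein of plasma and matrix that binds the urokinase receptor, was lower, at 348 ± 154 against 1612 ± 559 (-2.32 ± 0.44, limma, adjusted p = 0.00125). *Lrp1*, the receptor that clears complexes of serpin and protease, was not called (5391 ± 2948 against 4970.0 ± 1583, limma, adjusted p = 0.905). *Serpini1*, neuroserpin, an inhibitor of tissue plasminogen activator, had 197, 52.8, 71.5, 141 and 180.0 in hypHSC and 384, 377, 665, 401 and 565 in qHSC. It was lower without overlap (-2.02 ± 0.40, limma, adjusted p = 0.00151).

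*Serpinf2*, the plasmin inhibitor alpha-2 antiplasmin, had 29.6, 73.5, 2.49, 14.7 and 1.51 in hypHSC and 328, 102, 101, 366 and 213 in qHSC. The groups did not overlap, and hypHSC 3 and 5 were lowest (-3.94 ± 0.91, limma, adjusted p = 0.00413). With 1 library left out the value ran from -4.59 (without hypHSC 2) to -3.36 (without hypHSC 5). *Plg*, the plasmin precursor, was lower too, at 49.3 ± 73.2 against 338 ± 127 (-3.86 ± 0.90, limma, adjusted p = 0.00455). *Serpinf1*, pigment epithelium-derived factor, which inhibits no protease, had 546, 475, 265, 236 and 149.7 in hypHSC and 548, 134, 242, 553 and 517 in qHSC. The groups overlapped (limma, adjusted p = 0.741), and the log2 fold change was -0.21, 0.04 without hypHSC 5 and -1.15 with reference gene scaling (adjusted p = 0.0268).

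*Serping1* (chr2:84595705-84605773, GRCm39) encodes C1 inhibitor, which blocks the proteases that start the classical and lectin pathways of complement, and plasma kallikrein. It had 14507, 9423, 8717, 9197 and 4353 normalized counts in hypHSC and 91862, 106608, 120936, 73201 and 92053 in qHSC. The highest hypHSC value, in hypHSC 1, was far below the lowest qHSC value, in qHSC 4. The means were 10.5-fold apart (9239 ± 3603 against 96932 ± 17906, SD, n = 5), with a log2 fold change of -3.47 ± 0.29 (limma, adjusted p = 4.04e-06). Of the 5 proteases of these kinds in the protease list, 3 were lower in the same libraries. *C1ra* had 725 ± 405 in hypHSC and 8298 ± 2209.6 in qHSC (-3.72 ± 0.43, limma, adjusted p = 3.91e-05), *C1s1* had 1951 ± 931 and 18485 ± 2809 (-3.39 ± 0.33, limma, adjusted p = 1.22e-05), and *Masp1* of the lectin pathway had 638 ± 364 and 39074 ± 9445 (-6.22 ± 0.50, limma, adjusted p = 2.9e-06). *Masp2* of the lectin pathway (-1.32 ± 0.86, limma, adjusted p = 0.228) and *Klkb1*, plasma kallikrein (-1.01 ± 0.54, limma, adjusted p = 0.142), overlapped between groups and were not called.

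*Serpinh1* (chr7:98994582-99002446, GRCm39) encodes HSP47, the chaperone of procollagen in the endoplasmic reticulum. It had 10857, 9200.3, 5047, 4931 and 451 normalized counts in hypHSC and 63522, 52055, 63505, 45338 and 62636 in qHSC. Every hypHSC library was below every qHSC library, and hypHSC 5 was far below the rest. The log2 fold change was -3.80 ± 0.71 with hypHSC 5 and -3.01 ± 0.26 without it (limma, adjusted p = 0.00113 and 5.48e-06). The collagen genes *Col1a1*, *Col1a2* and *Col3a1* were not called (log2 fold change 1.23, -0.12 and -0.60, limma, adjusted p = 0.118, 0.841 and 0.245). For each 100 counts of these 3 genes there were 3.63 to 45.8 of *Serpinh1* in hypHSC (20.8 to 45.8 without hypHSC 5) and 152 to 423 in qHSC (exact two-sided permutation test, p = 0.00794). No 59-base stretch of *Serping1* or *Serpinh1* occurs in another gene. The quiescent HSC markers were lower in the same libraries as both genes, by a median log2 fold change of -5.28, and their part in these results was not tested.

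**Figure D5:**
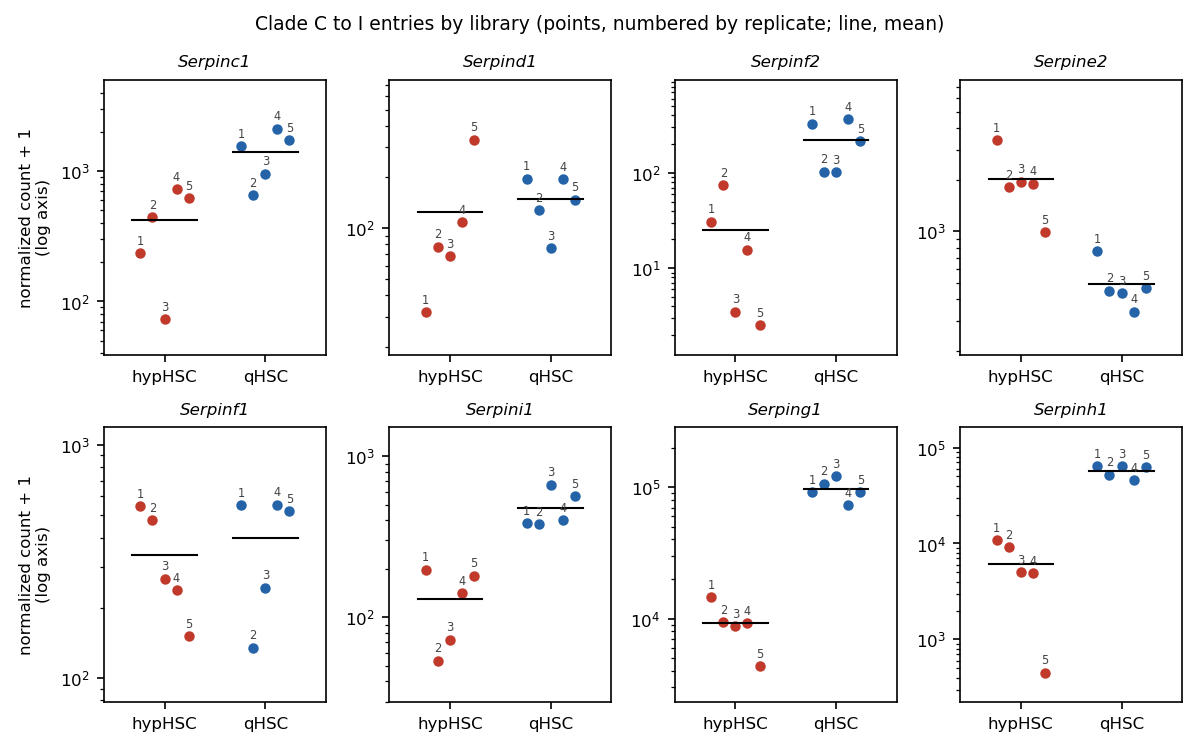
Normalized count plus 1 (log axis) of serpins of clades C to I in each library, with the group means. *Serpine2* is higher in every hypHSC library (988 to 3409) than in any qHSC library (338 to 763), and *Serping1* and *Serpinh1* are lower in every hypHSC library.

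Over whole lists of partners, 15 of 23 tested proteases that serpins are known to inhibit were called (8 higher, 7 lower, 65.2%, median log2 fold change 0.44), 7 of 16 receptors and binding partners (5 higher, 2 lower, 43.8%, median 0.31) and 11 of 17 protease inhibitors without the serpin fold (3 higher, 8 lower, 64.7%, median -1.73), beside 39.5% and a median of -0.20 for all genes. The lysosomal cathepsins *Ctss* (342679 ± 49880.4 in hypHSC, 5642 ± 6233 in qHSC) and *Ctsk* (4144 ± 1988 and 601 ± 73.1) were higher by 6.71 ± 0.68 and 2.63 ± 0.33 on the log2 scale (limma, adjusted p = 1.5e-05 and 6.62e-05). *Casp1* and *Casp8*, caspases of inflammation and cell death, were higher by 3.83 ± 0.39 and 1.001 ± 0.16 (limma, adjusted p = 1.61e-05 and 0.000445). Of the receptors, *Procr*, *Sort1* and *Rpsa* were higher by 2.39 ± 0.22, 4.42 ± 0.26 and 1.03 ± 0.21 (limma, adjusted p = 7.83e-06, 3.63e-07 and 0.0019). *Lrp8*, also counted as higher, reached at most 4.53 in qHSC and passed the filter through hypHSC alone. Among the counted proteases, *Plau* passed it through hypHSC alone and *Prtn3* through qHSC alone. Of the other inhibitors, the protease trap *Pzp* and the inter-alpha-inhibitor chains *Itih3* and *Itih4* were lower, with log2 fold changes of -2.12 ± 0.39, -4.51 ± 0.29 and -3.94 ± 0.75 (limma, adjusted p = 0.0011, 6.07e-07 and 0.00121). The 3 called higher, *Slpi*, *Wfdc17* and *Itih5* (log2 fold change 3.82, 3.72 and 3.49), overlapped between groups. *Agt*, the angiotensin precursor, which has the serpin fold under another name, was not called (273 ± 226 against 519 ± 274, limma, adjusted p = 0.139).

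The spread between libraries is described by clade, without a test. Among members with a group mean of at least 100 normalized counts, the median coefficient of variation in qHSC was 11.8% for clade B (3 genes), 32.8% for clades C to I (9) and 49.2% for clade A (11), beside 18.2% for all genes at this level. In hypHSC it was 30.9% for clade B (8 genes), 50.1% for clades C to I (8) and 57.0% for clade A (12), beside 38.1%. The ranges behind the hypHSC medians overlapped, at 21.2% to 81.7% for clade B, 25.6% to 97.6% for clades C to I and 24.9% to 109% for clade A. *Serpinb6a* varied least in both groups (7.78% in qHSC and 21.2% in hypHSC). *Serpina3f* varied most in qHSC (104%) and *Serpina3k* in hypHSC (109%).

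Within hypHSC, the 2 libraries of 13 weeks and the 3 of 12 weeks were set side by side without a test, since their number cannot reach a p of 0.05. In 15 of the 38 tested serpins (39.5%) they did not overlap, beside 21.9% of all genes tested. *Serpina3f*, *Serpina3g*, *Serpina3h*, *Serpina3i*, *Serpina3n*, *Serpinb1a*, *Serpinb6b*, *Serpinb9*, *Serpinf1*, *Serpinf2*, *Serping1* and *Serpinh1* were higher at 13 weeks. *Serpinb1c*, *Serpinb9b* and *Serpine3* were higher at 12 weeks. The 12-week libraries include hypHSC 5. The 13-week libraries also had more of their reads on entries without a symbol. This was 29.1% in hypHSC 1 and 20.1% in hypHSC 2, against 10.8% to 13.2% in hypHSC 3, 4 and 5. The part of this difference in the contrast was not tested. With the 12-week hypHSC libraries alone against qHSC, 8 serpins were called higher and 8 lower, beside 10 and 12 with all libraries. The calls lost were those of *Serpinb1b*, *Serpina3k* and *Serpinc1*, given above, and of *Serpinb6c* (0.88, limma, adjusted p = 0.105), *Serpina1e* (-1.24, adjusted p = 0.129) and *Serpina11* (-2.07, adjusted p = 0.108).

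Of the 26 entries that were not tested, 9 had no read in any library: *Serpina1f*, *Serpina5*, *Serpinb3a*, *Serpinb3b*, *Serpinb3c*, *Serpinb3d*, *Serpinb11*, *Serpinb13* and *Serpini2*. The 17 others reached 2.36 to 89.8 normalized counts at most. The highest was the pseudogene *Serpina4-ps1*, read in all 5 qHSC libraries and in no hypHSC library, but other genes overlap 100% of its exon bases, so that its reads cannot be assigned. *Serpinb2*, an inhibitor of urokinase, was read in 4 libraries and reached 32.3.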

How the data were processed

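RNA of 5 hypHSC and 5 qHSC preparations was sequenced from both ends with an unstranded, poly(A)-primed, low-input kit. The deposited signal per gene is the normalized count: per the labels and methods, the authors mapped reads with STAR 2.7.5a to mm39 (GRCm39), counted them with featureCounts (Subread 1.5.0) and divided each library by its DESeq2 size factor. Poly(A) priming and amplification from little RNA can widen the spread of low genes.

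Groups were taken from the labels. Entries were tested where they had a symbol and 10 or more normalized counts in 5 or more of 10 libraries. limma 3.58.1 (R 4.3.3) was run on log2(normalized count + 1), and p-values were adjusted after Benjamini and Hochberg over all entries tested. A fold change on this scale understates the change of low genes. Single ratios and shares were compared with exact two-sided permutation tests over 252 arrangements. Whole reads were recovered for 100% of values (within 0.05 of a whole number) and used for FPKM, the floor of 3 reads, DESeq2 1.42.0 and edgeR 4.0.16, intervals and floors covering counting error only. The fit was tested on simulated data. Exon overlap, shared 59-base stretches, reactive centre sequences and promoters came from the GRCm39 genome and its GENCODE annotation. The replicate numbers do not pair the samples.

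Values in every library are given for called members and for tested members that averaged 100 or more normalized counts in a group. Named partners are called, non-overlapping ones that averaged 1000 or more in a group, and textbook targets and receptors of the members. A few others are named to qualify a count or a direction. Members, lists and tests were chosen with earlier results of these data known. Alternatives changed the pseudocount, filter, scaling, tool, block, diet time and libraries used. Merging near-identical paralogs was added after the data had been seen. A tested member is counted but not reported here.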

Additional observations from a re-analysis of the deposited data

Results flagged for a closer look

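In 9 of 76 groups of 5 libraries, 1 library stood apart from the other 4 by more than Dixon's 95% limit. Chance gives about 1 in 20 for normally distributed, separate values. Counts are skewed and neighbouring genes are not separate, so the 9 of 76 cannot be read against that rate. In qHSC 3 these were *Serpina3f* (4825 normalized counts, next 1299), *Serpina3g* (5759.9, next 2606), *Serpina3i* (303.9, next 114) and *Serpinb1c* (3.15, with 0 in the other qHSC libraries). In hypHSC 5 they were *Serpina11* (45.4, next 9.43), *Serpinb12* (377, next 142) and *Serpind1* (331, next 107). *Serpinb8* was high in qHSC 4 (51.3, next 13.4) and *Serpinb9d* in hypHSC 2 (37.3, next 24.1).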

How the results depend on the processing

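Of the 22 calls, 11 held in all 21 alternatives, among them *Serpina3n*, *Serpinb12*, *Serpinb1c*, *Serpinb6b*, *Serpinb8*, *Serpinb9b* and *Serpine2* higher, and *Serpinf2*, *Serping1* and *Serpinh1* lower. The count of lower serpins was 19 with scaling to the reference genes, which shifts all genes down, and 4 where limma treat tested against the threshold fold itself (7 higher). With 1 library left out there were 9 to 10 higher and 9 to 14 lower serpins and 28 to 37 called partners (33 with all). DESeq2 gave 11 higher and 11 lower, and edgeR 10 and 9. The sign reversed in genes that were not called. With reference gene scaling this held for *Serpina10* (-0.43), *Serpina3c* (-0.60), *Serpinb9* (-0.80) and *Serpinb9d* (-0.79), with equal totals for *Serpina3c* (-0.019), *Serpinb9* (-0.22) and *Serpinb9d* (-0.23), and with hypHSCs of 12 weeks only for *Serpina12* (0.21), *Serpina3c* (-0.11), *Serpinb9* (-0.10) and *Serpinb9d* (-0.0137). *Serpina12* also reversed by DESeq2 (0.19) and edgeR (0.28). With 1 library left out, the values spanned -0.59 to 0.32 for *Serpina12* (-0.16 with all), -0.21 to 0.23 for *Serpinb9d* (0.11 with all) and -0.56 to 0.0372 for *Serpinf1* (-0.21 with all). The cause was not tested. With the replicate number as a block there were 9 higher and 13 lower serpins and 35 called partners. Deviations of same-numbered libraries correlated at 0.00816 to 0.129, so the numbers were not taken as pairs. Entries under 10 normalized counts in most libraries were beyond this depth.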
